A study of Homo sapiens with 9 samples.

Results

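N6-methyladenosine (m6A) is the most abundant internal modification of mRNA, and it is deposited by a nuclear complex of several proteins. METTL3 carries the catalytic site, METTL14 is its structural partner that helps bind RNA, and WTAP brings the pair to nuclear speckles. VIRMA is the large scaffold of the associated subunits, RBM15 and RBM15B are RNA-binding adaptors, ZC3H13 holds the complex in the nucleus, and CBLL1 (HAKAI) is a RING finger protein bound to WTAP and VIRMA. METTL16 is a separate m6A methyltransferase that acts on the U6 snRNA and on the MAT2A transcript, and is described with the complex as an enzyme of the same reaction. Trimethylation of histone H3 lysine 4 (H3K4me3) marks the promoters of active and poised genes, and the question here was whether loss of a writer subunit spared or lowered this mark at the promoters of the subunits themselves.

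These 9 writer genes were chosen by name from 20136 protein-coding genes, and the mark was read from peak lists made by CUT&RUN, in which antibody-tethered MNase releases DNA at the sites of a histone mark. HEL is an established human erythroleukemia cell line. The 9 libraries fell into 4 groups, namely 3 control libraries with nontargeting guides (NTC) and 2 libraries for each CRISPR knockout of METTL3 (METTL3-KO), METTL14 (METTL14-KO) and WTAP (WTAP-KO), all in the same HEL background. Knockouts in the study were made by lentiviral delivery of Cas9 and guides to cell populations, and no cloning of edited cells is described, so unedited cells may be present in a KO group. Nothing in the labels says whether replicates were separate cultures, so each p-value below measures the spread between libraries, which may be technical.

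Each value is the summed signal of the peaks within 1 kb of any annotated start of a gene, in spike-in calibrated coverage units that have no upper bound. A gene without a listed peak was given a signal of 0, which means only that no peak was listed there in that library. Read depth is unknown from the peak lists, so precision rests on how many libraries each group had. The lists held 21724 to 21941 peaks in the NTC libraries, 9205 and 9369 in METTL3-KO, 3169 and 5286 in METTL14-KO and 3160 and 3673 in WTAP-KO. No list held a peak narrower than 150 bp or wider than 2000 bp. Of the erythroid and megakaryocytic markers of HEL cells, 6 of 11 (GATA1, KLF1, TAL1, LMO2, GFI1B and EPOR) had a promoter peak in all 3 NTC libraries.

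The guides are shown because they tell where the knocked-out genes were cut relative to the mark. The study lists 11 guides against METTL3, METTL14 and WTAP, all 11 matched hg19 exactly within their gene, and which of them were used for the CUT&RUN cells is not stated. They are written 5′ to 3′ with the PAM read from hg19 in capitals.
METTL3 guide sgMETTL3_5: gaagcagctggactctctgcGGG
METTL3 guide sgMETTL3_6: agctggactctctgcgggagAGG
METTL14 guide HGLibA_28958: tccgggagcggcagaagttaCGG
METTL14 guide HGLibA_28957: gctgaaagtgccgacagcatTGG
WTAP guide sgWTAP_1: cgaagaacctcttcccaagaAGG
WTAP guide sgWTAP_10: aagttgtgcaatacgtccctGGG
The METTL3 guides match chr14:21979311-21979330 and chr14:21979306-21979325 on the minus strand, in the coding part of exon 1, and cut 168 and 173 bases downstream of the canonical start. These positions lay inside 4 of the listed H3K4me3 peaks. The first METTL14 guide matches chr4:119606712-119606731 on the plus strand in the coding part of exon 1 and cuts 181 bases downstream of the start, inside 5 listed peaks. The second matches chr4:119609084-119609103 in coding exon 2, 1694 bp from the nearest peak of any library. The WTAP guides match chr6:160157306-160157325 on the plus strand in coding exon 2 and chr6:160174569-160174588 on the minus strand in coding exon 7, and cut 6365 and 7183 bp from the nearest peak. The mark at METTL3 and METTL14 could thus be read across a possible edit, and the part of edits at the cut in the values below was not tested.

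METTL3, METTL14 and METTL16, which carry the methyltransferase fold, were marked in all 3 NTC libraries. At METTL3 the region covered chr14:21978047-21980079 (hg19), which contains the canonical start and exon 1 on the minus strand, and no other gene started within 1 kb of it. The signal at METTL3 was 6578, 9224 and 10067 in the NTC libraries, 1095 and 915 in METTL3-KO, 400 in METTL14-KO replicate 1, and no peak was listed in METTL14-KO replicate 2 or in either WTAP-KO library. Every NTC library was above every KO library. The mean of METTL3-KO was 11.7% of the NTC mean and that of METTL14-KO was 2.32%, while WTAP-KO had no listed signal at this promoter.

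In limma, on log2 of the signal plus a pseudocount of 30.1, METTL3 fell in every KO group, with a change of -3.05 in METTL3-KO (SE 1.05, adjusted p = 0.036), -6.23 in METTL14-KO (SE 1.05, adjusted p = 0.0015) and -8.14 in WTAP-KO (SE 1.05, adjusted p = 0.00037). The size of a change against libraries without a peak is set by the pseudocount and is not a fold. Thus the knockout of METTL3 itself was the KO group with the highest remaining mark at METTL3. This was not particular to METTL3: METTL3-KO also kept a peak at the most coding genes, at 34.1%, beside 17.2% in METTL14-KO and 12.2% in WTAP-KO. The METTL3-KO call was lost with either METTL3-KO library left out (adjusted p = 0.10 without replicate 1 and 0.13 without replicate 2), with any NTC library left out (0.063 to 0.087) and with either WTAP-KO library left out (0.058).

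METTL14 was also highest in NTC, lower in METTL3-KO and without a listed peak in METTL14-KO and WTAP-KO alike. Its region at chr4:119606242-119607406 spans the start on the plus strand and is shared with the start of the divergent lncRNA METTL14-DT, so the mark of the pair cannot be told apart. The signal at METTL14 was 3837, 3338 and 5174 in NTC and 965 and 349 in METTL3-KO. All NTC libraries were again above all KO libraries. The METTL3-KO mean was 16.0% of the NTC mean, and METTL14 fell by 2.73 on the log2 scale (SE 0.43, adjusted p = 0.0012). This call was lost when each library was centred on the genes marked in all 9 libraries. It was also lost when each library was divided by its smallest unit of signal, as was the METTL3-KO call of METTL3 under both. METTL14 fell by 7.08 in both METTL14-KO (SE 0.43, adjusted p = 7.2e-06) and WTAP-KO (SE 0.43, adjusted p = 7.2e-06). Loss of the mark at METTL14 was therefore as complete in the lists of WTAP-KO, where this gene was not targeted, as in those of METTL14-KO.

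METTL16 was not targeted in any group, and its values moved with those of METTL3. Its region at chr17:2414167-2415687 contains the canonical start on the minus strand and no other gene's start. The signal at METTL16 was 9324, 7822 and 10312 in NTC, 2204 and 1095 in METTL3-KO and 614 in METTL14-KO replicate 1, with no peak in METTL14-KO replicate 2 or in WTAP-KO. The METTL3-KO mean was 18.0% of NTC, with a log2 change of -2.53 (SE 1.21, adjusted p = 0.10) that did not pass the threshold of 0.05, although both libraries were below all NTC libraries. METTL16 fell in both, with a change of -6.03 in METTL14-KO (SE 1.21, adjusted p = 0.0035) and of -8.24 in WTAP-KO (SE 1.21, adjusted p = 0.00073). The METTL3-KO change passed the threshold when METTL14-KO replicate 1 or 2 was left out (adjusted p = 0.0015 and 0.0017).

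**Figure D1:**
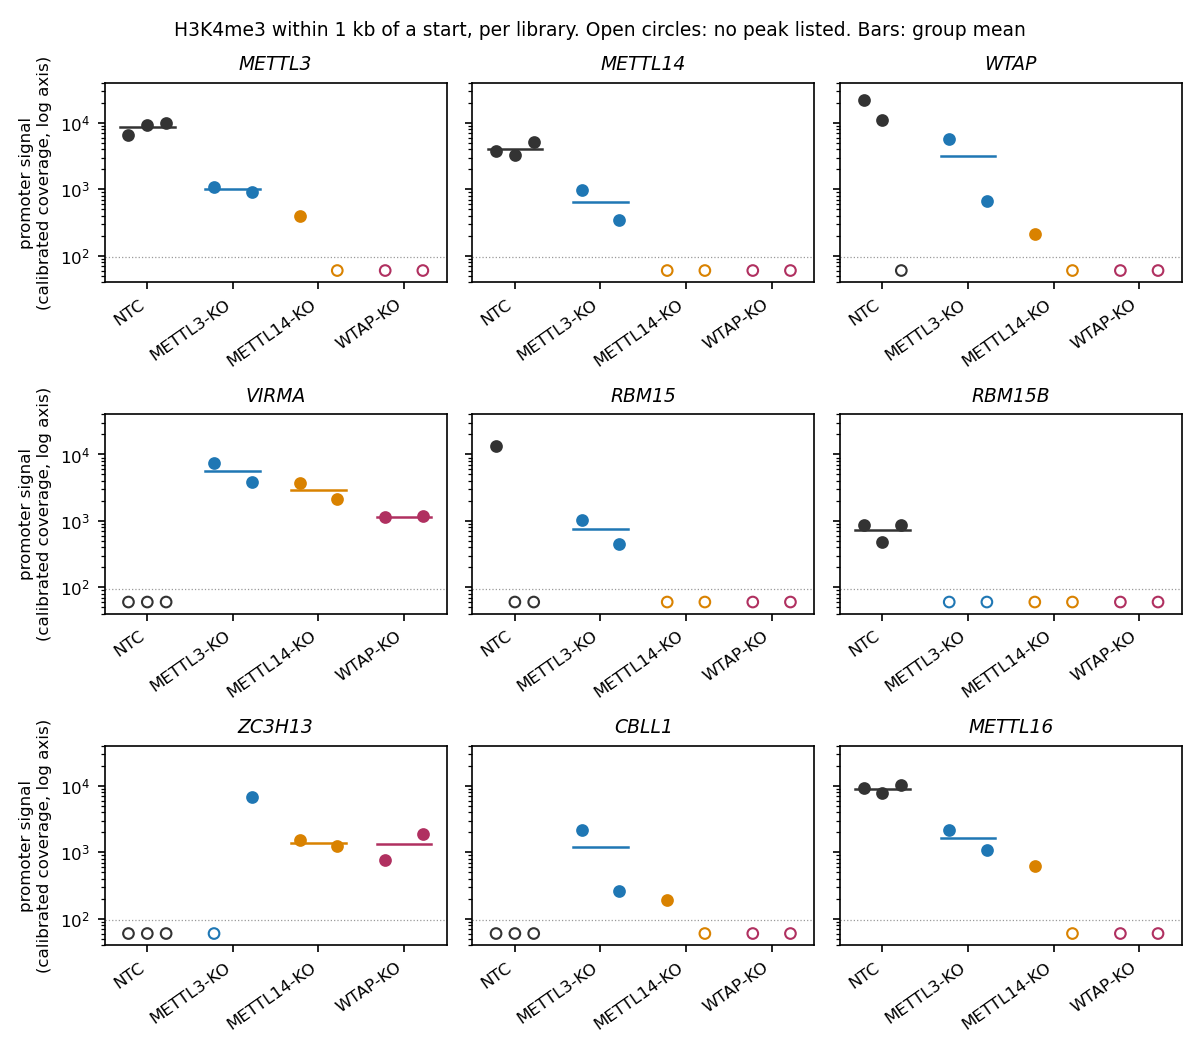
H3K4me3 signal within 1 kb of a start of each writer gene (calibrated coverage, log axis) in each of the 9 libraries. Filled points are libraries with a peak, open circles below the dotted line are libraries with no listed peak, and bars give the group mean where every library of a group had a peak. METTL3, METTL14 and METTL16 were highest in the 3 NTC libraries, whereas VIRMA, ZC3H13 and CBLL1 had no NTC peak and were marked in KO libraries only.

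The peaks listed at METTL3, METTL14 and METTL16 were also narrower in the KO groups. At METTL3 the marked stretch was 1617 to 2000 bp in NTC, 333 and 558 bp in METTL3-KO and 255 bp in the METTL14-KO library that kept a peak. At METTL16 it was 1222 to 1521 bp in NTC, 522 and 528 bp in METTL3-KO and 189 bp in METTL14-KO replicate 1, and at METTL14 it was 547 to 1165 bp in NTC and 342 and 303 bp in METTL3-KO. Each remaining KO peak at these 3 genes still contained the canonical start. Narrower peaks were not particular to these genes: over the 665 coding genes with a peak in all 9 libraries, the median width was 1497 to 1526 bp in NTC, 856 and 906 bp in METTL3-KO, 418 and 547 bp in METTL14-KO and 361 and 426 bp in WTAP-KO.

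**Figure D2:**
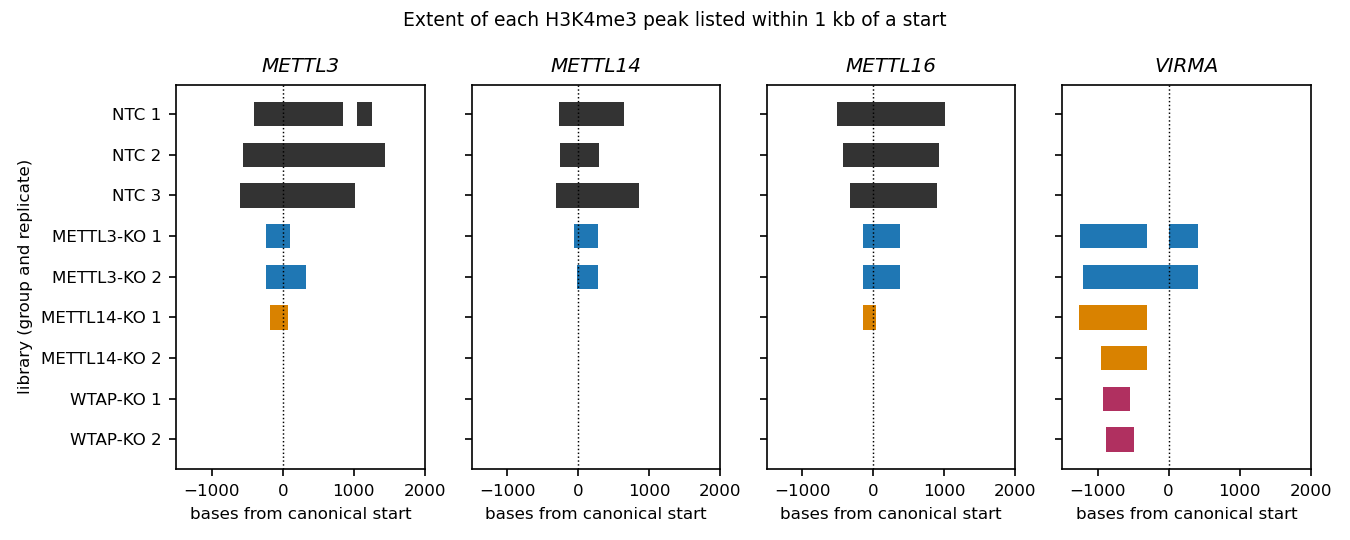
Extent of each H3K4me3 peak listed within 1 kb of a start of METTL3, METTL14, METTL16 and VIRMA, by library, against the distance in bases from the canonical start (dotted line, upstream to the left). At METTL3 the stretch narrowed from 1617 to 2000 bp in NTC to 333 and 558 bp in METTL3-KO, and at VIRMA peaks were listed in the 6 KO libraries and in no NTC library.

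WTAP, the adaptor that binds METTL3 and METTL14, had an uneven mark in the controls. The signal at WTAP was 21869 in NTC replicate 1, 11067 in NTC replicate 2 and not listed in NTC replicate 3. It was 5749 and 673 in METTL3-KO, 213 in METTL14-KO replicate 1, and not listed in METTL14-KO replicate 2 or in either WTAP-KO library. The NTC libraries overlapped all KO groups because of replicate 3. The promoter held 2 regions, chr6:160146856-160148382 upstream of the canonical start, which is shared with the start of SOD2 (mitochondrial superoxide dismutase) on the opposite strand, and chr6:160148738-160150453 downstream of it. NTC replicate 2 had a peak in the upstream region only, so the signal on the transcribed side of WTAP came from NTC replicate 1, both METTL3-KO libraries and METTL14-KO replicate 1.

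None of the changes at WTAP passed the test, at 0.05 (SE 2.95, adjusted p = 0.99) in METTL3-KO, -4.50 (SE 2.95, adjusted p = 0.20) in METTL14-KO and -6.01 (SE 2.95, adjusted p = 0.10) in WTAP-KO on the log2 scale. Without NTC replicate 3 the WTAP-KO change was -9.02 (adjusted p = 0.0025), the METTL14-KO change was -7.51 (adjusted p = 0.0053) and the METTL3-KO change turned to -2.95 (adjusted p = 0.12). The gene targeted in WTAP-KO was therefore without a listed peak in both of its own KO libraries, and whether this differed from NTC rested on NTC replicate 3.

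VIRMA, ZC3H13 and CBLL1 went the other way in the lists. VIRMA had no peak in any NTC library, the nearest NTC peak being 86522 bp from its starts. Its signal was 7439 and 3805 in METTL3-KO, 3779 and 2149 in METTL14-KO and 1138 and 1176 in WTAP-KO. Each KO library had a peak at VIRMA, and the 3 KO groups did not overlap, with METTL3-KO highest and WTAP-KO lowest. VIRMA, ZC3H13 and CBLL1 entered the fit only through KO libraries and stood against a group at 0, so a call of these genes against NTC had to be higher, is no fold and supports no rise. For VIRMA the fitted differences from NTC were 7.47 in METTL3-KO, 6.58 in METTL14-KO and 5.30 in WTAP-KO (SE 0.42 for each), all past the threshold. The KO peaks lay mainly upstream, between -1256 and 416 bp from the canonical start, on the side of the divergent lncRNA VIRMA-DT, and together covered 1673 bp. With peaks under the NTC median signal of 2095 left out, no WTAP-KO library had a peak at VIRMA.

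ZC3H13 had no NTC peak within 126151 bp. Its signal was not listed in METTL3-KO replicate 1, was 6788 in METTL3-KO replicate 2, 1533 and 1264 in METTL14-KO and 766 and 1917 in WTAP-KO. A peak was thus listed in 5 of 6 KO libraries, and the METTL3-KO pair held both the highest value and none. The fitted difference from NTC passed the threshold in METTL14-KO (5.56, SE 2.07, adjusted p = 0.046), a call that was lost when any NTC, METTL14-KO or WTAP-KO library was left out (adjusted p = 0.068 to 0.15). It did not pass in METTL3-KO (3.91, SE 2.07, adjusted p = 0.13) or WTAP-KO (5.37, SE 2.07, adjusted p = 0.052). Without METTL3-KO replicate 1 the METTL3-KO change was 7.82 (adjusted p = 4.7e-05) and the WTAP-KO adjusted p was 7.1e-05. The region chr13:46626792-46627574 contains the canonical start on the minus strand and is shared with a start of the antisense lncRNA CPB2-AS1.

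CBLL1 had no NTC peak within 146181 bp. Its signal was 2184 and 265 in METTL3-KO, 191 in METTL14-KO replicate 1, and not listed in METTL14-KO replicate 2 or in WTAP-KO. The fitted difference from NTC passed the threshold in METTL3-KO (4.75, SE 1.07, adjusted p = 0.0065), and without METTL3-KO replicate 1, the library with the higher value, the change was 3.29 (adjusted p = 0.10). In METTL14-KO it was 1.44 (SE 1.07, adjusted p = 0.26) and in WTAP-KO no library of either group had a peak. The peaks at chr7:107383857-107384660 lay mostly upstream of the canonical start on the plus strand and are shared with the start of CBLL1-AS1.

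The lack of an NTC peak at these 3 genes has to be read with the width of listed peaks. Peaks over 1800 bp made up 4.14% to 4.49% of the NTC lists and 0.285% to 1.24% of the KO lists, and none was over 2000 bp in any library, so a marked stretch wider than that would not appear in these files. The METTL3 peak of NTC replicate 2 was exactly 2000 bp wide. Whether wider regions existed at VIRMA, ZC3H13, CBLL1, RBM15 or WTAP in NTC libraries without a listed peak was not tested, since coverage outside the peaks was not analysed here. The pattern was not particular to the writers: 588 coding genes had no NTC peak and a peak in all 6 KO libraries, as VIRMA did, and 1321 had no NTC peak and a peak in 1 to 5 KO libraries, as ZC3H13 and CBLL1 did. Of the 7800 coding genes with a peak in any KO library, 24.5% had none in NTC, beside 3 of 8 writer genes.

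The RNA-binding adaptors RBM15 and RBM15B recruit the complex to transcripts, and neither had a promoter peak in METTL14-KO or WTAP-KO. RBM15B had a signal of 871, 474 and 854 in NTC at chr3:51428227-51428729, just upstream of its only start on the plus strand, and no peak in any of the 6 KO libraries. It was the lowest of the marks listed in all NTC libraries, and the fitted change was -4.61 in each KO group (SE 0.28, adjusted p = 7.0e-06 to 8.0e-06). RBM15B entered the fit only through the NTC libraries, so its call had to be lower, and these lists do not show by how much it was lowered.

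RBM15 had a signal of 13209 in NTC replicate 1 and no peak within 1 kb in NTC replicates 2 and 3. It was 1039 and 450 in METTL3-KO, and no peak was listed in METTL14-KO or WTAP-KO. The log2 changes were 1.65 (SE 2.66, adjusted p = 0.59), -2.93 (SE 2.66, adjusted p = 0.35) and -2.93 (SE 2.66, adjusted p = 0.35), none of which passed. Within 5 kb the picture was more even, because a peak at chr1:110884516-110885603, inside the gene, had a signal of 654, 2510 and 3030 in the NTC libraries and was in no KO list. With the 5 kb window RBM15 changed by -2.73 in METTL3-KO (adjusted p = 0.017), -7.31 in METTL14-KO (adjusted p = 0.00014) and -7.31 in WTAP-KO (adjusted p = 0.00013). The call at RBM15 therefore depended on the window, and under the centring on the 665 genes marked in all 9 libraries its 1 kb change turned to 0.13 in METTL14-KO and 0.79 in WTAP-KO.

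Over the 9 writer genes, 6, 5 and 4 had a promoter peak in NTC replicates 1, 2 and 3, 7 and 8 in METTL3-KO replicates 1 and 2, 6 and 2 in METTL14-KO, and 2 and 2 in WTAP-KO. The mean was 5.0 ± 1.0 (SD, n = 3) in NTC, 7.5 in METTL3-KO, 4.0 in METTL14-KO and 2.0 in WTAP-KO. Over all coding genes the mean share with a peak was 47.5%, 34.1%, 17.2% and 12.2% in the same order. The count of marked writers was thus higher in METTL3-KO than in NTC while that of all coding genes was lower. VIRMA, CBLL1, ZC3H13, RBM15 and WTAP were marked in a larger share of the METTL3-KO libraries than of the NTC libraries, and RBM15B in a smaller one. With peaks under the NTC median signal left out, the order turned, at 4.0 ± 1.0 (SD, n = 3) writers in NTC, 3.0 in METTL3-KO, 1.0 in METTL14-KO and 0 in WTAP-KO.

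**Figure D3:**
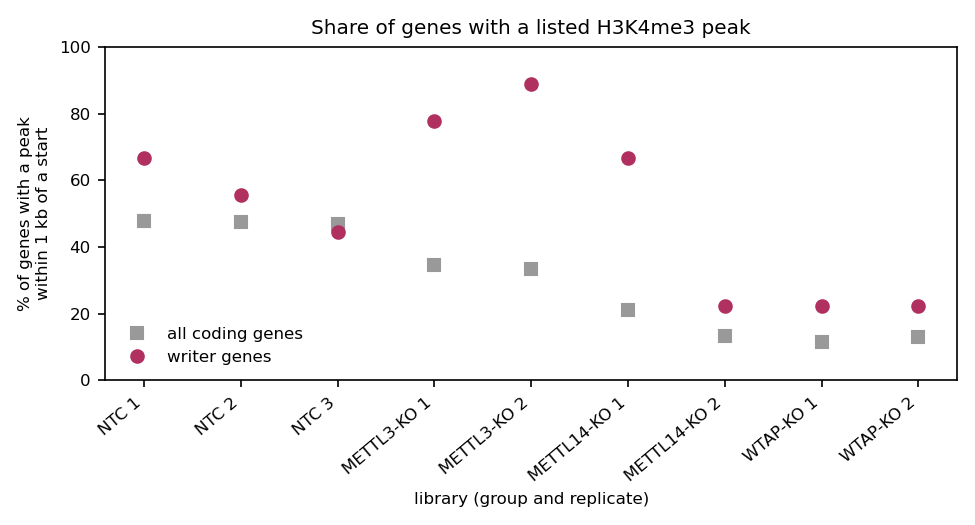
Percent of genes with a listed H3K4me3 peak within 1 kb of a start in each of the 9 libraries, for the 9 writer genes (circles) and all 20136 protein-coding genes (squares). The share of all coding genes was lower in every KO library than in NTC, whereas 7 and 8 of the 9 writers had a peak in the METTL3-KO libraries against 4 to 6 in NTC.

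The writers fell into several patterns when coding genes were grouped by the libraries that held a peak. METTL3, METTL14 and METTL16 belonged to the 3934 coding genes marked in all 3 NTC libraries and in 1 to 5 KO libraries, and RBM15B to the 3892 marked in all NTC and no KO library. WTAP and RBM15 were among the 2069 genes marked in 1 or 2 NTC libraries. No writer was among the 665 genes marked in all 9 libraries. Of genes marked in all NTC libraries, 39.8% had a peak in both METTL3-KO libraries (3 of 4 writers), 26.7% in at least 1 METTL14-KO library (2 of 4 writers) and 15.1% in at least 1 WTAP-KO library (0 of 4 writers).

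All 9 writers passed the filter of a peak in at least 2 libraries, as did 12032 coding genes in all. VIRMA, ZC3H13 and CBLL1 passed it through KO libraries alone and RBM15B through NTC libraries alone, so the counts that follow describe the lists and support nothing further. In METTL3-KO against NTC, 3 of 9 writers were called lower (METTL3, METTL14 and RBM15B), beside 61.0% of all tested genes, and 2 higher (VIRMA and CBLL1), beside 14.1%. In METTL14-KO 4 of 9 were called lower (METTL3, METTL14, RBM15B and METTL16), beside 68.8%, and 2 higher (VIRMA and ZC3H13), beside 8.43%. In WTAP-KO the same 4 were called lower, beside 69.7%, and VIRMA higher, beside 6.82%. For the mean of the KO groups, 4 were called lower, beside 72.9%, and VIRMA and ZC3H13 higher, beside 14.5%. These contrasts share the NTC libraries. When each library was centred on the 665 genes marked in all 9, the median of all genes moved from -3.56 to -1.82 in METTL3-KO, from -5.75 to -2.69 in METTL14-KO and from -6.20 to -2.49 in WTAP-KO. The calls over all genes moved from 8273 lower and 1014 higher to 6666 and 2037 in METTL14-KO, and from 8383 and 821 to 6823 and 2052 in WTAP-KO. Under this centring RBM15B alone fell in METTL3-KO, with METTL3 at -1.30 (adjusted p = 0.22) and METTL14 at -0.99 (adjusted p = 0.089), while in WTAP-KO the call of RBM15B was lost (adjusted p = 0.12). The centring also added higher calls, of CBLL1 in METTL14-KO (4.49, adjusted p = 0.0020) and of ZC3H13 (9.08, adjusted p = 0.0071) and CBLL1 (3.71, adjusted p = 0.0051) in WTAP-KO, so that 4 writers were lower and 3 higher in METTL14-KO and 3 lower and 3 higher in WTAP-KO. CBLL1 had no peak in either NTC or WTAP-KO, so that its value there came from the centring alone.

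The median log2 change of the writers was 0.05 in METTL3-KO, -4.50 in METTL14-KO and -4.61 in WTAP-KO, beside -3.56, -5.75 and -6.20 over all genes tested. When only libraries with a peak entered the fit, 5 writers could be tested in METTL3-KO (METTL3, METTL14, WTAP, RBM15 and METTL16). All 5 were called lower, beside 5095 of the 5753 genes tested in that way. The median was -2.95 for these writers, beside -2.92 over those genes. In METTL14-KO 3 of 3 were called lower, beside 2587 of 2839 genes, and in WTAP-KO none could be tested. This fit selects libraries by the outcome and rests on 1 library for RBM15 in NTC and for METTL3, WTAP and METTL16 in METTL14-KO, so it is given as a description only.

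**Figure D4:**
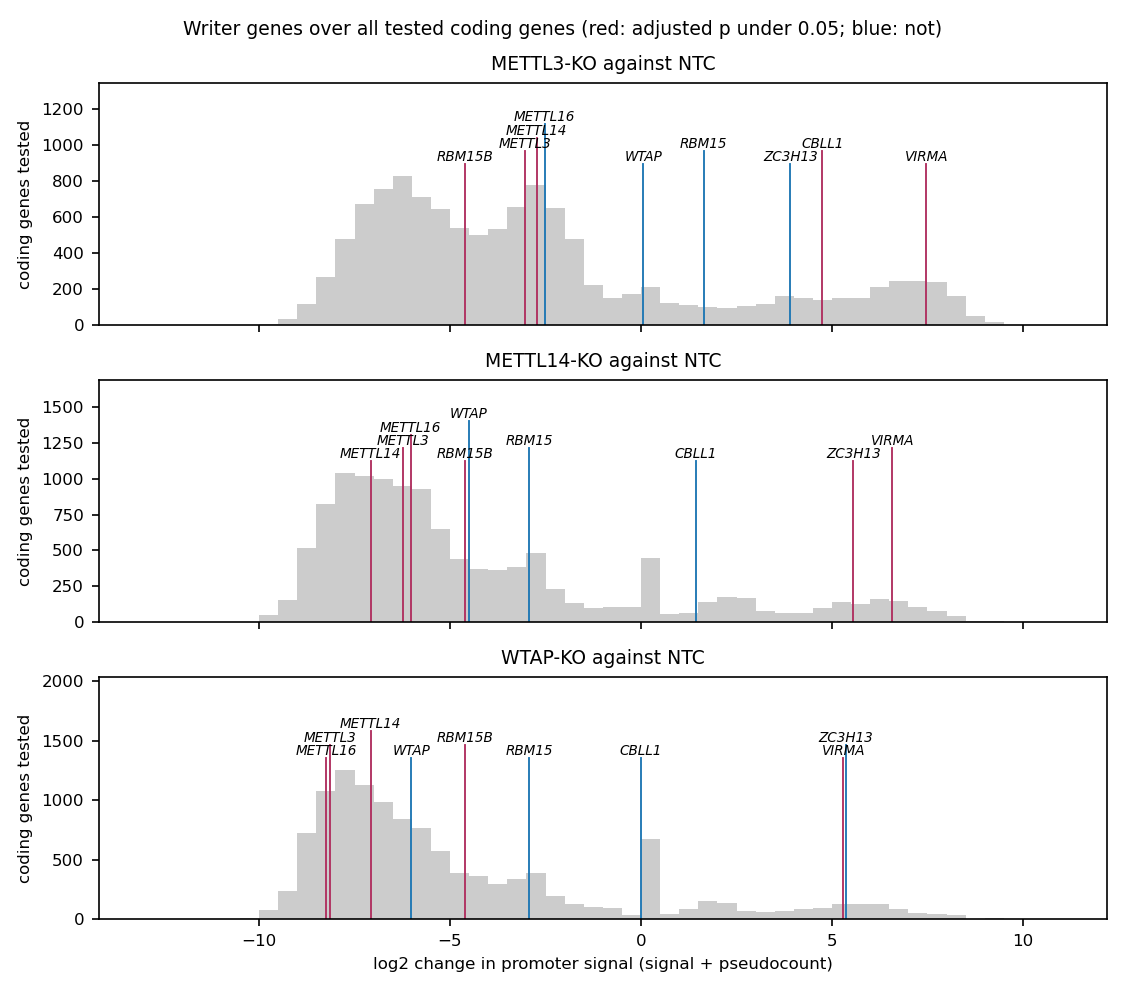
Log2 change in promoter signal for each KO group against NTC. Grey bars count all 12032 tested coding genes, and vertical lines give the writer genes, red where the adjusted p was under 0.05 and blue where it was not. METTL14-KO and WTAP-KO moved METTL3, METTL14 and METTL16 to between -6.03 and -8.24, close to the bulk of all genes, while VIRMA stayed between 5.30 and 7.47.

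The KO groups were then compared with each other, each against the mean of the other 2. Signal was higher in METTL3-KO at 5 of 9 writers and lower at 0, beside 30.0% and 0.598% of all tested genes, with the median of all genes at 1.76. The differences were 4.14 for METTL3 (SE 0.99, adjusted p = 0.023), 4.35 for METTL14 (SE 0.41, adjusted p = 0.00036), 4.61 for METTL16 (SE 1.15, adjusted p = 0.027), 4.03 for CBLL1 (SE 1.02, adjusted p = 0.028) and 1.53 for VIRMA (SE 0.39, adjusted p = 0.030), which turned to -0.11 under the centring on genes marked in all 9 libraries. That centring moved the calls over all genes from 72 lower and 3612 higher to 3797 and 2491. The calls of METTL3, METTL16, CBLL1 and VIRMA were lost with 1 or more libraries left out, with 1 to 5 writers called over these fits. METTL14-KO differed at METTL14 alone (-2.18, SE 0.41, adjusted p = 0.017), with 1 of 9 lower, beside 11.6%, and 0 higher, beside 1.41%. WTAP-KO was lower at METTL14 (-2.18, SE 0.41, adjusted p = 0.013) and VIRMA (-1.73, SE 0.39, adjusted p = 0.027), with 2 of 9 lower, beside 20.1%, and 0 higher, beside 0.532%. METTL14 had the same difference in METTL14-KO and WTAP-KO because neither group held a peak, so its own knockout did not stand apart from that of WTAP. Peak heights were scaled by the spike-in, and the smallest unit of signal differed between libraries, being 1.14 to 1.32 in NTC, 0.461 and 1.07 in METTL3-KO, 0.416 and 0.440 in METTL14-KO and 0.320 and 0.407 in WTAP-KO. After each library was divided by its unit, 1 writer (METTL14) remained called higher in METTL3-KO, beside 2066 of 12032 genes. In the other contrasts between KO groups 0 writers were then called.

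The promoters that the data bear on are printed because members that shared a pattern might share sequence. The 200 bases upstream of the outermost start near the canonical start are given 5′ to 3′ on the strand of the gene from hg19, with motif matches in capitals.
METTL3 (chr14:21979485-21979684, minus strand): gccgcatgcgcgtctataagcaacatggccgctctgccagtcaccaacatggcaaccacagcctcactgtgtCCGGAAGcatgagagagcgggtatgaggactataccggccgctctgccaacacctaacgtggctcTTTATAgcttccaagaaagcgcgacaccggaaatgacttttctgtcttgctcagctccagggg
METTL14 (chr4:119606347-119606546, plus strand): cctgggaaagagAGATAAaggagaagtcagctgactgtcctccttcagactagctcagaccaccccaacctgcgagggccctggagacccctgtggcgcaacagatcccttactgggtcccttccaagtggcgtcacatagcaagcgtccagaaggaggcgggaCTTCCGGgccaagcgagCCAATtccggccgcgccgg
METTL16 (chr17:2415186-2415385, minus strand): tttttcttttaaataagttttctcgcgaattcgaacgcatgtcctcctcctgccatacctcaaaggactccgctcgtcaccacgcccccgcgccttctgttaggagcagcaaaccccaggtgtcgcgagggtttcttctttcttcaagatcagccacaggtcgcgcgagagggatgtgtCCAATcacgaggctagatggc
RBM15B (chr3:51428516-51428715, plus strand): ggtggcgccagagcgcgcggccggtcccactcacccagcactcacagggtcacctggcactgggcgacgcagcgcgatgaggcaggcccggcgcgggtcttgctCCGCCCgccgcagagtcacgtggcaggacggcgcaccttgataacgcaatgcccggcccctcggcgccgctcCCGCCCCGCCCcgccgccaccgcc
ZC3H13 (chr13:46626895-46627094, minus strand): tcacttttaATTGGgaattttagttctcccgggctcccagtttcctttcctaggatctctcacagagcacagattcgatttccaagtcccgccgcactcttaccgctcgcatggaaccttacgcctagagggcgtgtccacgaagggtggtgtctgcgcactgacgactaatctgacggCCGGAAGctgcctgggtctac
CBLL1 (chr7:107384387-107384586, plus strand): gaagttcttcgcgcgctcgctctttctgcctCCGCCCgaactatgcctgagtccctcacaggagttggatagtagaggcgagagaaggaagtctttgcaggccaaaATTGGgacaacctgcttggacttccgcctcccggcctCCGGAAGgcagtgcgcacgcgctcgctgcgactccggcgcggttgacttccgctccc
Both strands were searched for the ETS core (CCGGAAG), the GC box (GGGCGG), the CCAAT box (CCAAT), the GATA site (AGATAA), the erythroid CACCC element (CCNCACCC) and the TATA box (TATAAA), none of which overlapped another in the printed windows except adjoining GC boxes. The ETS core was in 5 of 9 writers (METTL3, METTL14, VIRMA, ZC3H13 and CBLL1), beside 9.52% of 19856 coding promoters. The GC box was in 4 of 9, beside 55.2%, and the CCAAT box in 5 of 9, beside 30.5%. The GATA site was in METTL14 only, beside 5.00%, the TATA letters were in METTL3 only, on the opposite strand, beside 7.54%, and the CACCC element was in 0 of 9, beside 16.8%. The ETS core was thus present both in promoters that lost the mark (METTL3, METTL14) and in those listed in KO libraries only (VIRMA, ZC3H13, CBLL1). GC content was 53.0% to 78.5% with a median of 61.5%, beside 64.0% for all coding promoters, and was highest at WTAP and RBM15B.

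The genes most like METTL3 over the 9 libraries, by Euclidean distance of log2 signal, were ATG4D (an autophagy protease, distance 0.25), LSM14B (0.55) and MTX2 (0.57). The closest to METTL14 were CDKAL1 (0.38), SRM (spermidine synthase, 0.43) and MRPS36 (0.62). WTAP had no near neighbour, SLC40A1 (ferroportin) being at 1.93 and SOCS7 at 2.03, which like WTAP had no peak in NTC replicate 3. Each was found among 12031 other tested genes, and likeness over so few libraries is a description only.

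The readers and erasers of m6A gave a setting for these values. Among the 15 genes of this list, all of which were tested, 7 were called lower and 3 higher in METTL3-KO, beside 61.0% and 14.1% of all tested genes. In METTL14-KO 8 were lower and 1 higher, beside 68.8% and 8.43%, and in WTAP-KO 8 were lower and 1 higher, beside 69.7% and 6.82%. The medians were -2.79, -4.91 and -4.91, beside -3.56, -5.75 and -6.20 over all tested genes. The demethylase FTO had a signal of 4313, 4868 and 4793 in NTC and no peak in any KO library. The cytoplasmic reader YTHDF2 had none in NTC and 2970 and 2137 in METTL3-KO. IGF2BP2, a reader of the insulin-like growth factor mRNA-binding family, had a signal of 64, none and 1138 in NTC and 2387 to 15782 over the 6 KO libraries. It was called higher in all 3 KO groups (limma, adjusted p = 0.0094, 0.015 and 0.031). Whether an NTC region wider than 2000 bp went unlisted at IGF2BP2 was not tested. The reader PRRC2A had no NTC peak and 3168 and 2584 in METTL3-KO. YTHDF2 and PRRC2A were both called higher in METTL3-KO, against a group at 0. The highest NTC marks of the list were those of YTHDF3 (none, 20475 and 28505) and YTHDC1 (9047, 10207 and 10359).

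MAT2A, the enzyme that makes the methyl donor S-adenosylmethionine and whose transcript METTL16 methylates, had a signal of 21124, 19722 and 24158 in NTC, 2537 and 1229 in METTL3-KO, 582 in WTAP-KO replicate 1 and none in the other 3 KO libraries. Of the 8 other methyltransferase and methyl donor genes, 6 were called lower and 2 higher in every KO group, beside 61.0%, 68.8% and 69.7% of all tested genes lower and 14.1%, 8.43% and 6.82% higher. Those called higher were TRMT112, the partner of METTL5, and MAT2B, the regulatory subunit of MAT2A, both of which had a peak in all 6 KO libraries and none in NTC. TRMT112 and MAT2B thus entered the fit only through KO libraries, so their calls against NTC had to be higher and support no rise. AHCY, which clears S-adenosylhomocysteine, was marked in all 9 libraries, at 34268 to 38304 in NTC and 3029 to 10996 in the KO groups. The writers, the readers and the donor enzymes thus each held genes that lost the mark and genes listed in the KO libraries only.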

How the data were processed

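CUT&RUN with an H3K4me3 antibody was performed in HEL cells. Per the study's methods, the authors sequenced paired ends, aligned them with Bowtie to hg19 and to sacCer3 (yeast spike-in), used the yeast reads for calibration, removed duplicates with Picard and called peaks in each library. Tool versions are not given in the sources used here. The authors deposited a list of peaks for each library, with the position of a peak and its signal (calibrated coverage). Starts were read as counted from 0 and are given from 1. All 25 chromosome names were found in hg19 and 0 peaks ended past a chromosome.

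Groups and replicate numbers came from the labels. The writer genes and the other gene lists were chosen with earlier results of these data known. Starts were those of GENCODE v44 lifted to hg19. The signal of a gene was the sum over peaks within 1 kb of any start. Genes with a peak in at least 2 of 9 libraries (12032 of 20136) were tested in limma 3.58.1 (R 4.3.3) with a trend, on log2(signal + 30.1), the pseudocount being the lowest signal of any list. All 9 libraries were in 1 model without covariates, with Benjamini-Hochberg adjustment over all tested genes and a threshold of 0.05. The fit was tested on simulated data. Peaks sharing at least 1 base were merged to regions. Same-numbered libraries deviated from their group means with r from -0.062 to 0.098 over 12 pairs of groups and numbers. In a KO group of 2 libraries the deviations mirror each other, so both numbers gave the same r between KO groups. These r values gave no sign of pairing by replicate number but cannot exclude it. All 9 writers are named. From the other lists the genes that qualified for naming were those higher in a KO, those marked in all 9 libraries and the 2 with the highest mean NTC signal. Like patterns were the 3 smallest Euclidean distances. Some results under these rules are not reported here. FTO and MAT2A were named after their values were seen. Alternatives were another pseudocount (0.1 and 10 times), filter, window (5 kb), highest peak, merged regions, centring, division by the smallest unit, a minimum signal, only the groups compared, a replicate block and leaving out each library. Python 3.11.15 with pandas 2.3.3 and pysam 0.24.0 was used.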

Additional observations from a re-analysis of the deposited data

Results flagged for a closer look

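The effect of a knockout differed between the KO groups at 5 writer genes, by the test of each group against the mean of the other 2. Such differences were common: 30.0% of all tested genes were called higher in METTL3-KO, with a median of 1.76 over all genes. Calls of lower signal were made at 11.6% of genes in METTL14-KO and 20.1% in WTAP-KO. In METTL3-KO the log2 signal was higher than in the other KO groups by 4.14 at METTL3, 4.35 at METTL14, 4.61 at METTL16, 4.03 at CBLL1 and 1.53 at VIRMA (limma, adjusted p = 0.023, 0.00036, 0.027, 0.028 and 0.030). In METTL14-KO the difference was -2.18 at METTL14 (adjusted p = 0.017). In WTAP-KO it was -2.18 at METTL14 (adjusted p = 0.013) and -1.73 at VIRMA (adjusted p = 0.027). The smallest unit of signal also differed between libraries, and its part in these differences was tested only by dividing each library by it, after which METTL14 in METTL3-KO was still called (adjusted p = 0.0026) and the other 7 of these 8 differences were not.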

How the results depend on the processing

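Of the results for single writer genes, 1105 values held both direction and call, 87 lost a call, 55 gained one and 28 reversed. The calls against NTC of METTL3, METTL14, METTL16, RBM15B and VIRMA in METTL14-KO, of METTL3, METTL14 and METTL16 in WTAP-KO, and of RBM15B and VIRMA in METTL3-KO were made under each alternative that gave a value for them. RBM15B entered the fit only through NTC libraries and VIRMA only through KO libraries, so their calls had to be lower and higher. That the calls of RBM15B and VIRMA were kept therefore supports no change at these genes. The alternatives of the canonical start alone and leaving out libraries without a peak were chosen after seeing the data.

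Counts of calls over all coding genes against NTC, for METTL3-KO, METTL14-KO, WTAP-KO and their mean, were 9029, 9287, 9204 and 10520. Over merged regions in place of genes they were 18068, 17384, 17437 and 21807, since more items were tested, and with libraries without a peak left out they were 5209, 2639, 1562 and 1484, since fewer were. With peaks under the NTC median left out, 6126 and 6100 were called in METTL14-KO and WTAP-KO. With each library left out in turn the ranges were 8097 to 9510, 9100 to 9461, 9007 to 9483 and 9556 to 10129.

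Between KO groups, 3684 genes were called in METTL3-KO, 1563 in METTL14-KO and 2481 in WTAP-KO. METTL3-KO gave 6288 after centring, 2133 after division by the unit, 888 above the NTC median and 1898 with libraries without a peak left out. METTL14-KO gave 605 with 10 times the pseudocount, 989 after division, 835 above the NTC median and 23 with libraries without a peak left out. WTAP-KO gave 507, 1338, 848 and 870 after centring, division, the NTC median and leaving out libraries without a peak. Leaving out single libraries gave 2410 to 4411, 1313 to 2156 and 1453 to 3520. The cause of these shifts was not tested.

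Of the writers, 5 were called in METTL3-KO against NTC, 3 after centring and 3 after division, and 4 to 6 with a library left out. In METTL14-KO 6 were called, 3 with libraries without a peak left out (3 tested) and 5 to 6 with a library left out. In WTAP-KO 5 were called, 3 above the NTC median and 5 to 6 with a library left out. The mean of the KO groups gave 6, and 5 to 7. Over all 12032 tested genes, 9029, 9287, 9204 and 10520 were called in these contrasts against NTC. In METTL3-KO this was 7869 after centring and 7649 after division, and in WTAP-KO 6100 of 8690 above the NTC median. Between KO groups, METTL3-KO gave 5, beside 3684 of 12032 genes, 1 after division, beside 2133, and 1 above the NTC median, beside 888 of 8690. It gave 2 with libraries without a peak left out (2 tested), beside 1898 of 2599 genes. With only the KO groups fitted it gave 7 (8 tested), beside 4091 of 6426. METTL14-KO gave 1, beside 1563 of 12032 genes, and 2 with only the KO groups, beside 1659 of 6426. It gave 0 with 10 times the pseudocount, after division or with libraries without a peak left out, beside 605, 989 and 23 genes. WTAP-KO gave 2, beside 2481 of 12032 genes, and 1 with 10 times the pseudocount, beside 1924. It gave 0 after centring and after division, beside 507 and 1338 genes. Above the NTC median it gave 1, beside 848 of 8690, and with libraries without a peak left out 1, beside 870 of 2599. Leaving out single libraries gave 1 to 5, 0 to 2 and 0 to 5. With libraries without a peak left out, no writer could be tested in WTAP-KO or the mean of the KO groups against NTC.

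The number of marked writers minus that of NTC was 2.5, -1.0 and -3.0 after loss of METTL3, METTL14 and WTAP. Above the NTC median it reversed to -1.0 in METTL3-KO and was -3.0 in METTL14-KO and -4.0 in WTAP-KO. With a library left out it was 2.0 to 3.0, -3.0 to 1.0 and -3.5 to -2.5, the reversal to 1.0 being without METTL14-KO replicate 2.

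With the replicate number as a block, 4, 6 and 6 writers were called against NTC after loss of METTL3, METTL14 and WTAP. Beside these, 8790, 9333 and 9398 of 12032 genes were called. Between KO groups 2, 0 and 1 writers were called, beside 2834, 1189 and 1785 genes. Whether the numbers paired the libraries is not known, so the block is not read as a stricter test.

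In METTL3-KO against NTC, WTAP reversed to -0.80 with 10 times the pseudocount, -0.080 with the highest peak, -2.30 above the NTC median, -2.95 with the replicate block, without NTC replicate 3 or with libraries without a peak left out, and -1.47 without METTL3-KO replicate 1, with a range of -2.95 to 1.80 over the libraries left out. RBM15 reversed to -0.093 with 10 times the pseudocount, -2.73 with the 5 kb window and -4.21 with libraries without a peak left out. After centring RBM15 reversed to 0.13 in METTL14-KO, 0.79 in WTAP-KO and 1.43 in the mean of the KO groups, which was 1.52 without NTC replicate 1 (range -2.87 to 1.52). Between KO groups, METTL3-KO reversed at VIRMA to -0.11 after centring and at ZC3H13 to 2.36 without METTL3-KO replicate 1 or with libraries without a peak left out. METTL14-KO reversed at METTL3 to 1.29, CBLL1 to 0.50 and METTL16 to 1.56 without METTL14-KO replicate 2, at VIRMA to -0.048 without METTL3-KO replicate 2 and -0.21 without METTL14-KO replicate 1, and at ZC3H13 to -1.03 without METTL3-KO replicate 1 or with libraries without a peak left out. WTAP-KO reversed at ZC3H13 to -0.033 with 10 times the pseudocount, -1.32 without METTL3-KO replicate 1 or with libraries without a peak left out, and -0.013 without WTAP-KO replicate 2. Over the libraries left out the ranges were -5.47 to 2.36 (ZC3H13, METTL3-KO), -2.55 to 1.29 (METTL3), -0.21 to 0.60 (VIRMA), -1.03 to 2.88 (ZC3H13), -2.37 to 0.50 (CBLL1) and -2.86 to 1.56 (METTL16) in METTL14-KO, and -1.32 to 2.59 (ZC3H13) in WTAP-KO. The cause of these reversals was not tested.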

Other observations

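The complexes that write H3K4me3 were themselves marked in these cells. Of 13 H3K4 methyltransferase and COMPASS genes, 12 had a promoter peak in all 3 NTC libraries, beside 8491 of 20136 coding genes. Of these 13, 6, 9 and 10 were called lower after loss of METTL3, METTL14 and WTAP, beside 61.0%, 68.8% and 69.7% of all tested genes, and 1 was called higher in each, beside 14.1%, 8.43% and 6.82%. The gene called higher was KMT2A (MLL1), with no NTC peak and a signal of 15290 to 31730 over the 6 KO libraries. KMT2A entered the fit only through KO libraries, so its call against NTC had to be higher and supports no rise. Whether an NTC region wider than 2000 bp went unlisted at KMT2A was not tested. KMT2C had the highest NTC mean of the list, at 21458, 24068 and 6833, followed by DPY30 at 12620, 10487 and 12716. ASH2L and WDR82 were marked in all 9 libraries.

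Of the 11 erythroid and megakaryocytic genes, 10 could be tested, and 4, 6 and 6 were called lower after loss of METTL3, METTL14 and WTAP, beside the same shares. KLF1, an erythroid transcription factor, had a signal of 10347, 8488 and 11190 in NTC, and EPOR, the erythropoietin receptor, 8281, 7713 and 9594. Neither had a peak in a KO library. No gene of the 8 markers of other lineages had a KO peak.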
